A study of Mus musculus with 18 samples.

Results

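The 10 genes of the MYC network (Myc, Mycn, Mycl, Max, Mxd1, Mxd3, Mxd4, Mxi1, Mnt and Mga) were followed through exit from naive pluripotency in WT mouse embryonic stem cells (ESCs) and in ESCs with active ezrin. They were taken by their Ensembl identifiers from a count table of 53801 genes. All 10 had enough reads to be among the 18469 genes tested. RNA was sequenced from 18 libraries in 6 groups of 3. WT cells are the line E14 (E14TG2a). iEZR_CA cells were made from E14 cells and carry a PiggyBac transgene, switched on by doxycycline, for a phosphomimetic and so constitutively active ezrin followed by an IRES and mCherry. Ezrin ties the plasma membrane to the actin cortex. Both lines were sampled as ESCs (0 h), in medium with 2 inhibitors and LIF (2i+LIF: the MEK inhibitor PD0325901, the GSK3 inhibitor CHIRON and leukemia inhibitory factor), and then in N2B27 medium alone, harvested at 24 h (T24) or 48 h (T48). Doxycycline was added to iEZR_CA cultures some 16 h ahead of the medium change. The labels and methods mention none for WT, so effects of the drug and of the transgene cannot be told apart. Cells were grown on gelatin, and only polyadenylated RNA was read. The study compared the lines to ask whether keeping the membrane tightly attached to the cortex hinders exit.

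MYC, MYCN and MYCL are transcription factors that bind DNA as pairs with MAX, most tightly at the E-box sequence CACGTG, and raise the transcription of genes for ribosome production, metabolism and growth. MXD proteins (MXD1, MXD3, MXD4 and MXI1), MNT and MGA compete for MAX and for the same sites. MXD proteins and MNT bring SIN3 and histone deacetylases and repress, whereas MGA holds together a Polycomb complex that silences germline genes in ESCs. In ESCs, MYC and MYCN share the task of sustaining growth and biosynthesis.

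E-boxes near the start sites of the members were read first, in promoters of 300 bases (250 before the RefSeq start and 50 from it, build GRCm38.p6). CACGTG reads the same on both strands and was searched as exactly these letters, so 1 match counts for both strands. RefSeq promoters were found for 9 members. Of these, Max, Mxd4 and Mnt (33.3%) held CACGTG, against 8.09% of all 27025 genes with a promoter (7.15% of all 32851 promoters). Mycn, Mycl, Mxd1, Mxd3, Mxi1 and Mga held none in this window. Among the 42 genes of the list of MYC targets used below, 33 had a promoter, and 11 of them (33.3%) held the motif. Cdk4, the gene of a G1 cyclin-dependent kinase, had the most copies, 4. The stretches that hold the motif are shown 5′ to 3′ on the strand of the gene, with CACGTG in capitals, for these 3 members and for Cdk4. They lie at chr12:76962229-76962308 (minus strand, motif from 3 bases before the start), chr5:34187880-34187959 (minus strand, 219 bases before), chr11:74830764-74830843 (plus strand, 123 bases before) and chr10:127063345-127063534 (plus strand, 172, 118, 98 and 11 bases before). The RefSeq start used for Max is upstream of the gene span given for it below, which ends at 76962201, and the whole stretch lies outside that span.
Max: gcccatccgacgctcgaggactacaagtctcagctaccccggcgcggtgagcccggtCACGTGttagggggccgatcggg
Mxd4: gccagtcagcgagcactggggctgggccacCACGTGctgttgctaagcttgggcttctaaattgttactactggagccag
Mnt: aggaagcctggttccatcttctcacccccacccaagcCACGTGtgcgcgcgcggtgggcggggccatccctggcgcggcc
Cdk4: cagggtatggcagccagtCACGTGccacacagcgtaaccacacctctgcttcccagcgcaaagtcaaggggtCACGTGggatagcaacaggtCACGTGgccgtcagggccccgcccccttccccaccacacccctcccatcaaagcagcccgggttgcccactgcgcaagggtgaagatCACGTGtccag
The 3 members do not share 1 pattern of expression: Max varied least of all 10 genes, Mnt was low in iEZR_CA cells at every stage, and Mxd4 rose after exit in both lines. A motif match describes these letters and is no evidence of binding.

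Between 10940752 and 33276622 reads per library were counted on genes. In every pair of replicates counts differed by more than sampling noise (chi-square per degree of freedom 1.55 to 3.33). Ezr, read from the endogenous gene and any transgene reads together, stood at 24819, 20793 and 16215 mean normalized counts (scaled by size factors for depth) in iEZR_CA ESCs, T24 and T48 cells, against 11763, 7711 and 10096 in WT cells. The 6 pluripotency markers (such as Pou5f1, Sox2 and Nanog) were all above 1 TPM (counts per base of exon, scaled to the same total in every library) in every group. For markers of other cells the summed TPM lay between 3.16 and 17.1 for 7 primitive endoderm genes, between 0.905 and 16 for 6 fibroblast genes and between 6.13 and 19 for 6 trophoblast genes. Between 0 and 2 of the 7 primitive endoderm genes and 2 or 3 of the 6 trophoblast genes exceeded 1 TPM in a group. Of the 6 fibroblast genes, 0 or 1 did in ESCs and at T24, 4 in WT cells at T48 (15.2 to 16 TPM in sum) and 2 in iEZR_CA cells at T48 (9.65 to 11.9). Col3a1, Lum and Elf5 had too few reads to test. The part of other cell types in the values below was not tested.

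Levels of different genes are compared in TPM. Mycn was the most abundant member in all 6 groups. In WT ESCs the order by mean TPM was Mycn (148), Max (82.4), Mnt (61.7), Mga (54.0), Mycl (29.4), Mxi1 (15.4), Mxd3 (12.5), Myc (8.14), Mxd1 (3.49) and Mxd4 (1.69), and no neighbours in it overlapped between libraries. Myc had rank 8 in ESCs of both lines, rank 2 at T24 in WT cells, and rank 4 at T24 in iEZR_CA cells and at T48 in both lines. In iEZR_CA ESCs Myc (3.74) overlapped Mxd1 (3.01), the gene below it. Further on, the neighbours that overlapped were Mga and Max in WT cells at T24 and T48, Max and Myc in WT cells at T48, and Mycl, Mxd3 and Mxi1 in iEZR_CA cells at T48. In bulk RNA, fewer cells that express a gene and less RNA per cell cannot be told apart.

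**Figure D1:**
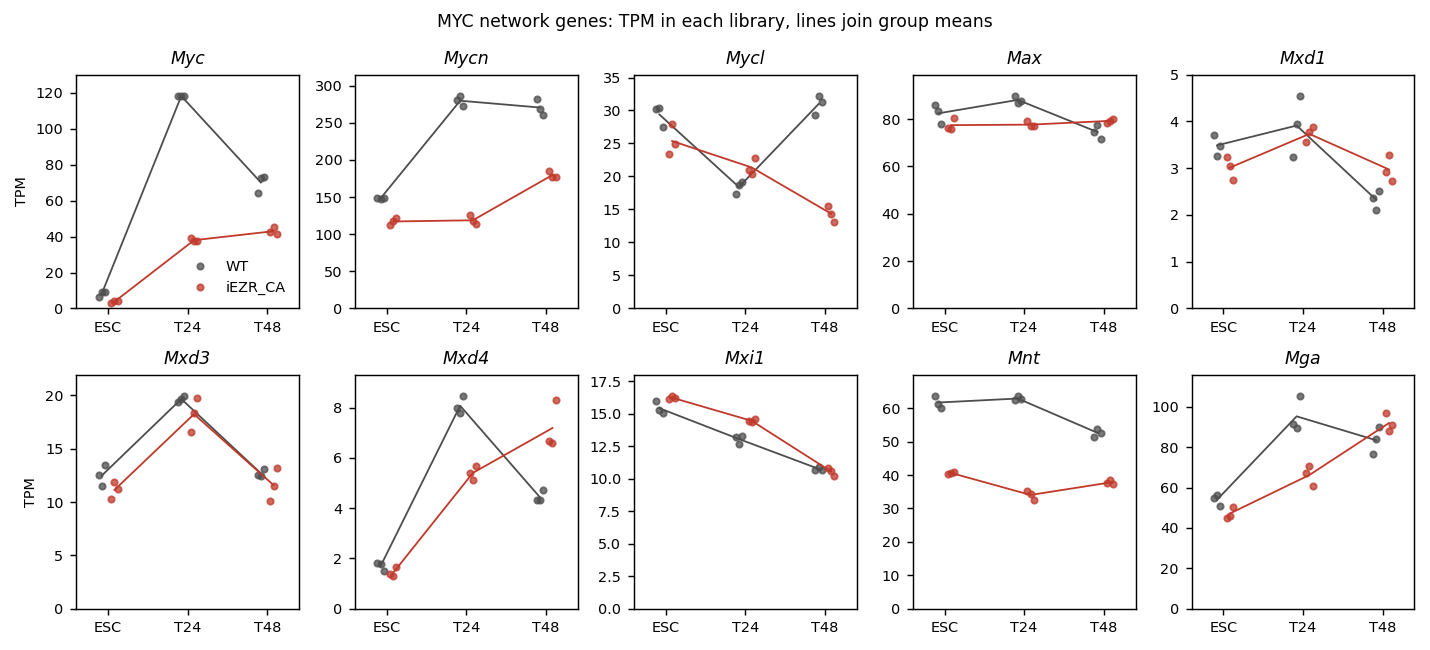
Level of each of the 10 genes in TPM (y axis, from 0) in each library at 0 h (ESC), 24 h (T24) and 48 h (T48); grey points are WT libraries, red points iEZR_CA libraries, and lines join the means of 3 libraries. Myc rose in both lines but to 118 TPM in WT and 38 in iEZR_CA cells at T24, and Mnt was lower in iEZR_CA cells at every stage.

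Myc (ENSMUSG00000022346, chr15:61985391-61990374, plus strand), the founding member and an early target of growth signals, was lower in iEZR_CA than in WT cells at all 3 stages and rose steeply in both lines on exit. In WT ESCs its 3 libraries held 6.25, 9.11 and 9.07 TPM, and in iEZR_CA ESCs 2.96, 4.05 and 4.21. The raw counts in ESCs were small, 104 to 226 in WT and 52 to 93 in iEZR_CA libraries, and the groups did not overlap. At T24 the values were 118, 118 and 118 TPM in WT cells and 39.2, 37.4 and 37.4 in iEZR_CA cells. At T48 they were 64.4, 72.8 and 73.1 in WT cells and 42.4, 45.1 and 41.4 in iEZR_CA cells. Every WT library lay above every iEZR_CA library of its stage. The ratio of iEZR_CA to WT was 0.454 in ESCs, 0.314 at T24 and 0.620 at T48 (log2 fold changes of -1.14 ± 0.13, -1.67 ± 0.05 and -0.69 ± 0.06, standard error). The adjusted p-values were 7.1e-10, 3e-28 and 2e-14 (edgeR's quasi-likelihood test with Benjamini-Hochberg adjustment over all genes tested, as for all adjusted p-values below). From ESC to T24, Myc rose 13.9-fold in WT and 9.60-fold in iEZR_CA cells. From T24 to T48 it fell in WT cells, by 0.79 on the log2 scale (adjusted p = 7.1e-18), and was higher by 0.19 in iEZR_CA cells (adjusted p = 0.0058). The last call was lost without the second iEZR_CA T48 library, the highest of the 3 (0.14, adjusted p = 0.076), and with spike-in scaling (0.29, adjusted p = 0.069).

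Mycn (ENSMUSG00000037169, chr12:12936093-12941914, minus strand), the paralogue best known from neural progenitors and neuroblastoma, rose during the first day in WT cells, whereas in iEZR_CA cells a rise passed the test on the second day and not on the first. Its libraries held 148, 147 and 149 TPM in WT ESCs, 280.2, 286 and 272 at T24, and 282, 268 and 261 at T48. In iEZR_CA cells they held 113, 117 and 121 TPM in ESCs, 125, 117 and 113 at T24, and 185, 177 and 177 at T48. The iEZR_CA libraries lay below the WT libraries at each stage, and those of T24 overlapped those of iEZR_CA ESCs. From ESC to T24 Mycn rose by 0.89 ± 0.03 (log2) in WT cells, whereas the change in iEZR_CA cells was -0.06 ± 0.03 (95% interval -0.13 to 0.01, adjusted p = 0.16), called as a fall when the first iEZR_CA T24 library was left out (-0.09, adjusted p = 0.03). The difference between these changes was -0.94 ± 0.05 (interaction, adjusted p = 6.2e-25), and it was the only interaction of a member at T24 whose size exceeded 1.5-fold. From T24 to T48 Mycn rose by 0.61 ± 0.03 in iEZR_CA cells (adjusted p = 8.3e-24). In WT cells the change on the second day was small, -0.07 ± 0.03 (adjusted p = 0.037), and turned positive when libraries were scaled to spike-in RNA (0.05). Between the lines, the log2 fold changes were -0.33, -1.27 and -0.59 in ESCs, at T24 and at T48 (adjusted p = 1.7e-12, 4.7e-40 and 2.8e-24), and that in ESCs was no longer called with spike-in scaling (-0.27, adjusted p = 0.096).

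Mycl (ENSMUSG00000028654, chr4:122995652-123002485, plus strand), the weakest transforming gene of the family, moved in the opposite sense to Myc in WT cells. It fell on the first day and rose again on the second. WT libraries held 30.2, 30.4 and 27.5 TPM in ESCs, 17.3, 18.7 and 19.2 at T24, and 29.4, 32.2 and 31.3 at T48. In iEZR_CA cells it fell in both steps, with 23.4, 27.9 and 24.9 TPM in ESCs, 21, 20.4 and 22.7 at T24, and 15.6, 14.4 and 13.1 at T48. The WT change was -0.72 by T24 and 0.73 from T24 to T48, and the iEZR_CA changes were -0.33 and -0.56 (log2, standard errors 0.06 to 0.07). The first-day fall in iEZR_CA cells was lost with spike-in scaling (-0.17, adjusted p = 0.35). At T48 Mycl was thus lower in iEZR_CA cells by 1.09 ± 0.06 on the log2 scale (adjusted p = 2.3e-23), with no overlap. The small differences in ESCs (-0.19, adjusted p = 0.0047) and at T24 (0.20, adjusted p = 0.0057) each depended on single libraries. The first was lost without the first iEZR_CA ESC library (adjusted p = 0.08), and the second without the first WT T24 library (adjusted p = 0.065) or the third iEZR_CA T24 library (adjusted p = 0.067).

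Summed over the 3 genes, MYC transcripts stood at 186 ± 1.22 TPM in WT ESCs and 146 ± 6.30 in iEZR_CA ESCs (SD, n = 3). At T24 the sums were 416 ± 6.49 and 178 ± 6.45 TPM, and at T48 372 ± 5.65 and 237 ± 5.91. The sum rose 2.24-fold in WT cells and 1.22-fold in iEZR_CA cells by T24, and the iEZR_CA sum at T24 lay below all 3 WT ESC libraries in 2 of 3 libraries. Myc made up 4.38% of the sum in WT ESCs and 28.4% at T24, against 2.55% and 21.3% in iEZR_CA cells. These sums are descriptions without a test.

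**Figure D2:**
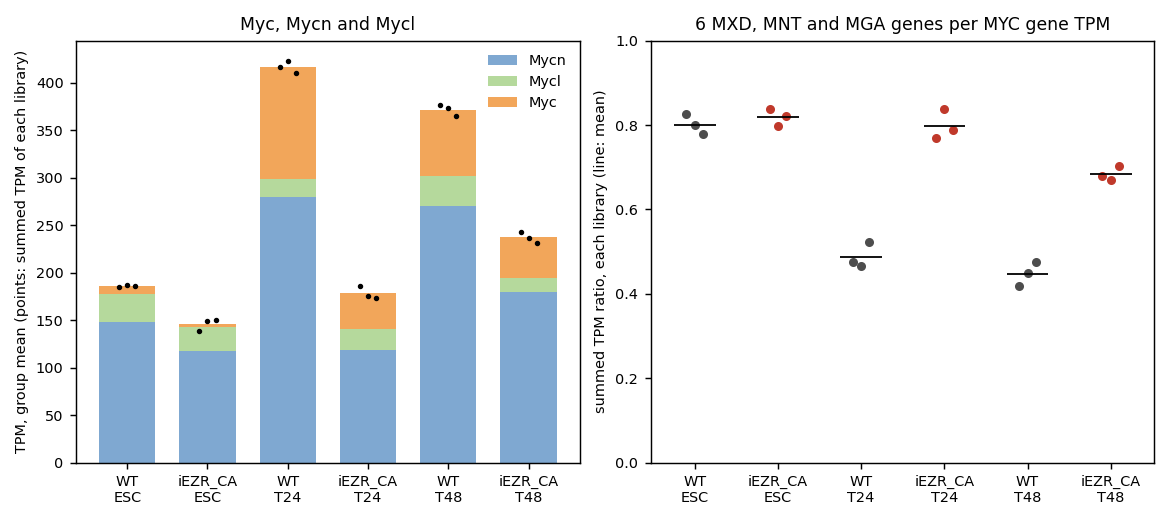
Left, group mean TPM of Mycn, Mycl and Myc stacked (y axis, from 0), with the summed TPM of each library as points. Right, summed TPM of Mxd1, Mxd3, Mxd4, Mxi1, Mnt and Mga divided by the MYC sum in each library (grey WT, red iEZR_CA, line at the mean): it fell from 0.801 in ESCs to 0.488 at T24 in WT cells and was 0.818 and 0.799 in iEZR_CA cells.

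Max (ENSMUSG00000059436, chr12:76937269-76962201, minus strand), the shared partner, was the steadiest member. Its highest group mean was 1.20 times its lowest. It held 85.8, 83.4 and 78.1 TPM in WT ESCs, 89.9, 86.7 and 87.9 at T24, and 74.5, 77.7 and 71.4 at T48, and between 75.8 and 80.3 in all 9 iEZR_CA libraries. It was lower in iEZR_CA cells at T24 by 0.21 ± 0.04 on the log2 scale (adjusted p = 5.4e-07), a call lost with spike-in scaling (-0.14, adjusted p = 0.42). In WT cells it fell from T24 to T48 by 0.28 ± 0.04 (adjusted p = 9.6e-10), a call lost with spike-in scaling (-0.14, adjusted p = 0.37). The higher value in iEZR_CA cells at T48 (0.10, adjusted p = 0.02) was lost without the third WT T48 library (0.05, adjusted p = 0.31), without the second iEZR_CA T48 library (adjusted p = 0.081) and with DESeq2 (adjusted p = 0.079). With Max nearly level, the MYC sum per Max TPM went from 2.26 in WT ESCs to 4.72 at T24 and 4.99 at T48, and from 1.89 to 2.29 and 2.99 in iEZR_CA cells.

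Of the 4 MXD genes, whose products compete with MYC proteins for MAX, Mxd4 changed most. Mxd4 (ENSMUSG00000037235, chr5:34173883-34187720, minus strand) held 1.81, 1.77 and 1.5 TPM in WT ESCs, 7.98, 7.79 and 8.46 at T24, and 4.31, 4.31 and 4.71 at T48. In iEZR_CA cells it held 1.37, 1.28 and 1.65 TPM in ESCs, 5.41, 5.12 and 5.67 at T24, and 6.66, 6.61 and 8.30 at T48. It thus rose 4.66-fold in WT and 3.63-fold in iEZR_CA cells by T24, then fell in WT cells and rose further in iEZR_CA cells. The difference between the first-day rises was -0.36 on the log2 scale (95% interval -0.67 to -0.05) and was not called (interaction, adjusted p = 0.057). It was called with at least 10 counts in every library (adjusted p = 0.047) and with the compared groups alone (adjusted p = 0.043). With spike-in scaling it was -0.35 (adjusted p = 0.41). The difference between the lines changed sign. Mxd4 was lower in iEZR_CA cells at T24 by 0.61 ± 0.08 on the log2 scale (adjusted p = 1.7e-10) and higher at T48 by 0.67 ± 0.08 (adjusted p = 3.9e-11), with no overlap at either stage. The lncRNA gene Gm42846 lies on the opposite strand over 6.06% of the exonic bases of Mxd4, and the study does not state whether counting used the strand.

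Mxd3 (ENSMUSG00000021485, chr13:55325168-55329823, minus strand), the member tied to S phase, rose by T24 and fell by T48 in both lines. Its mean was 12.5 ± 0.985 TPM in WT ESCs, 19.7 ± 0.267 at T24 and 12.7 ± 0.321 at T48 (SD, n = 3), and 11.1 ± 0.821, 18.2 ± 1.59 and 11.6 ± 1.53 in iEZR_CA cells. The rise by T24 was 0.62 in WT and 0.64 in iEZR_CA cells on the log2 scale (adjusted p = 1.6e-09 and 7.5e-09). The difference between these rises was 0.02, with a 95% interval of -0.23 to 0.27. No difference between the lines was called at any stage (-0.14, -0.12 and -0.15, adjusted p = 0.22, 0.19 and 0.16). That at T48 was called when the third iEZR_CA T48 library was left out (-0.23, adjusted p = 0.048). Prelid1 shares 4.43% of the exonic bases of Mxd3 on the opposite strand.

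Mxd1 (ENSMUSG00000001156, chr6:86647042-86669161, minus strand), a gene induced in many differentiating lineages, stayed between 2.11 and 4.55 TPM in all 18 libraries. In WT cells it fell from T24 to T48, from 3.91 ± 0.654 to 2.33 ± 0.203 TPM, by 0.70 ± 0.11 on the log2 scale (adjusted p = 1.5e-07). In iEZR_CA cells the fall was 0.32 ± 0.11 (adjusted p = 0.0077), lost with spike-in scaling (-0.22, adjusted p = 0.3). Mxd1 was higher in iEZR_CA cells at T48, with 2.93, 3.27 and 2.72 TPM against 2.36, 2.11 and 2.51 (log2 fold change 0.34, adjusted p = 0.0084). The call was lost with spike-in scaling (0.38, adjusted p = 0.066) and without the second iEZR_CA library (0.25, adjusted p = 0.1). Mxi1 (ENSMUSG00000025025, chr19:53310518-53375810, plus strand), whose product MXI1 counters MYC in a similar way, fell in both lines. It went from 15.4 to 13.1 and 10.8 TPM in WT cells and from 16.3 to 14.5 and 10.6 in iEZR_CA cells. The net fall by T48 was 0.58 ± 0.05 and 0.69 ± 0.05 on the log2 scale (adjusted p = 1.1e-15 and 5.6e-19). With spike-in scaling the net falls were still called (-0.31 and -0.44, adjusted p = 0.035 and 0.003), but of the 4 single steps only that of the second day in iEZR_CA cells was (-0.35, adjusted p = 0.032), and the first-day values were -0.14 in WT and -0.09 in iEZR_CA cells and the second-day value in WT cells -0.18 (adjusted p = 0.43, 0.66 and 0.3). The small excess in iEZR_CA cells at T24 (0.12, adjusted p = 0.045) was not called by DESeq2 (adjusted p = 0.13), nor when each of 5 of the 6 T24 libraries was left out in turn. Gm10197 lies opposite 2.84% of the exonic bases of Mxi1.

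Mnt (ENSMUSG00000000282, chr11:74830920-74845725, plus strand), the broadly expressed repressor that balances MYC in dividing cells, was lower in iEZR_CA cells at all 3 stages with little spread. WT libraries held 63.6, 61.4 and 60.1 TPM in ESCs, 62.3, 63.5 and 62.9 at T24, and 51.5, 53.8 and 52.7 at T48. iEZR_CA libraries held 40.4, 40.6 and 41.0, then 35.3, 34.5 and 32.4, then 37.6, 38.4 and 37.3 TPM. No iEZR_CA library of any stage reached the lowest WT library of any stage. The ratio of iEZR_CA to WT was 0.666 in ESCs, 0.530 at T24 and 0.721 at T48 (log2 fold changes of -0.59, -0.92 and -0.47, standard error 0.04, adjusted p = 6.7e-22, 1.4e-31 and 3e-17). Over the first day the change in WT cells was 0.00 ± 0.04 (log2, adjusted p = 0.95), whereas Mnt fell by 0.33 ± 0.04 in iEZR_CA cells (adjusted p = 1.2e-10). With spike-in scaling these values were 0.13 and -0.18, neither called (adjusted p = 0.43 and 0.31). Of the 10 members, Myc, Mycn and Mnt were called lower in iEZR_CA cells at every stage. Of all genes tested, 28.1%, 30.1% and 30.1% were called lower at the single stages in order. The share of all genes lower at all 3 stages was not counted.

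Mga (ENSMUSG00000033943, chr2:119897228-119969581, plus strand), a T-box and MAX-binding scaffold, rose in both lines by T24, and by less in iEZR_CA cells. The interaction was -0.36 (adjusted p = 0.018), and -0.35 with spike-in scaling, where it was not called (adjusted p = 0.21). WT libraries held 54.9, 56.2 and 50.7 TPM in ESCs, 91.2, 89.2 and 105 at T24, and 76.4, 83.8 and 89.9 at T48. iEZR_CA libraries held 45.0, 45.9 and 50.4, then 67.3, 70.6 and 60.6, then 97.1, 87.8 and 90.8 TPM. By T24 Mga rose by 0.78 ± 0.08 in WT and 0.42 ± 0.08 in iEZR_CA cells (log2), and on the second day it rose by 0.48 ± 0.08 in iEZR_CA cells. The fall in WT cells on the second day (-0.21, adjusted p = 0.024) was lost without the first WT T48 library (adjusted p = 0.13) or the third WT T24 library (adjusted p = 0.1), and with spike-in scaling (-0.09, adjusted p = 0.58). Mga was lower in iEZR_CA cells at T24 by 0.55 ± 0.08 (adjusted p = 2.8e-05), and at T48 the difference was 0.14 (95% interval -0.02 to 0.31, adjusted p = 0.12). In ESCs the difference of -0.18 had no overlap between the lines but missed the threshold (adjusted p = 0.064), and it was called when the 2 ESC groups were fitted alone (adjusted p = 0.00017). Without a filter on low counts, the differences in ESCs (adjusted p = 2.2e-06) and at T48 (0.17, adjusted p = 1.9e-05) were both called.

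**Figure D3:**
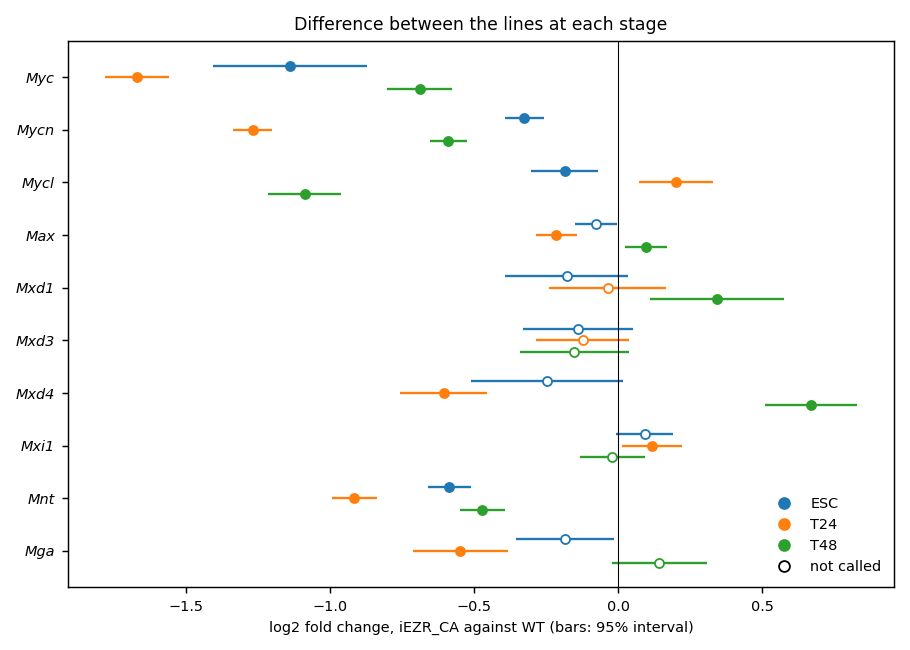
Difference between the lines for each gene (y axis) as log2 fold change of iEZR_CA against WT (x axis, bars are 95% intervals) in ESCs (blue), at T24 (orange) and at T48 (green); open points were not called at an adjusted p of 0.05. Myc, Mycn and Mnt lie left of 0 and are called at all 3 stages, and Mxd3 lies left of 0 at all 3 without a call. Between T24 and T48, Mxd4, Mycl and Max change side and are called at both stages. Mga, Mxd1 and Mxi1 also change side but are not called at both.

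Counted over the members, 0 were higher and 4 lower in iEZR_CA ESCs than in WT ESCs, where 54.5% of all genes tested were called (26.4% higher and 28.1% lower). At T24, 2 were higher and 6 lower, against 60.9% of all genes, and at T48, 3 were higher and 4 lower, against 61.1%. The median log2 fold change of the 10 genes was -0.19, -0.38 and -0.09, and that of all genes -0.01, 0.00 and 0 at the 3 stages. The shares of members called, 4, 8 and 7 of 10, were near the background, and the members differed from it in direction only as far as these medians show. Regardless of sign, the median size of the log2 fold change was 0.19, 0.38 and 0.41 for the members. For all genes it was 0.27, 0.34 and 0.33. Within WT cells, 5 members rose and 2 fell from ESC to T24 (65.4% of all genes called), 1 rose and 9 fell from T24 to T48 (65.7%), and 4 rose and 4 fell over the whole time (74.5%). Within iEZR_CA cells, 4 rose and 3 fell from ESC to T24 (56.0% of all genes), 5 rose and 4 fell from T24 to T48 (59.6%), and 4 rose and 3 fell over the whole time (70.1%). The interaction of line and time was called for 6 members at T24 (38.3% of all genes), 1 of them above and 5 below 0, and for 7 at T48 (45.8%), 5 above and 2 below. The line comparisons at T24 and T48 share WT and iEZR_CA libraries with the time comparisons, so their values are not independent.

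Pluripotency markers moved with both stage and line. Their summed TPM fell from between 5470.3 and 5532 in WT ESCs to between 3267 and 3288 at T24 and between 1311 and 1350.2 at T48. In iEZR_CA cells it was between 4685 and 4740.3, between 3969 and 4026, and between 1691 and 1774. The 4 formative markers (Otx2, Pou3f1, Fgf5 and Dnmt3b) summed to between 1261 and 1319 TPM at T24 in WT and between 455 and 484 in iEZR_CA cells. At T48 they summed to between 2277 and 2451 TPM in WT and between 1176 and 1256 in iEZR_CA cells. At T24 all 4 were called lower in iEZR_CA cells (60.9% of all genes called). At T48, 2 were lower and 1, Otx2, was higher (61.1% of all genes called), with 123 against 72.9 TPM for Otx2. Their part in the values of the members was not tested. Genes within 2.5 Mb of each member had median log2 fold changes between the lines of -0.19 to 0.14, so the neighbourhoods of Myc (-0.09, -0.09 and -0.07) and Mycn (-0.06, -0.17 and -0.05) moved less than these genes.

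Over the 6 repressor genes together (4 MXD genes, Mnt and Mga), the summed TPM per MYC TPM was 0.801 ± 0.024 in WT ESCs, 0.488 ± 0.031 at T24 and 0.448 ± 0.028 at T48 (SD, n = 3). In iEZR_CA cells it was 0.818 ± 0.020, 0.799 ± 0.035 and 0.684 ± 0.017. The lines overlapped in ESCs, and at T24 and T48 the lowest iEZR_CA library exceeded the highest WT library. The mean repressor sum itself was not higher in iEZR_CA cells at any stage. It was 149, 203 and 166 TPM in WT cells and 120, 142 and 162 in iEZR_CA cells, in order of stage. The ratio and the sums are of transcripts and are given without a test.

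Known targets of MYC were followed through a list of 42 genes from textbook knowledge, all of which were tested. In iEZR_CA ESCs 28 were lower and 9 higher than in WT, at T24 36 were lower and 3 higher, and at T48 25 were lower and 5 higher. Of all genes tested, 28.1% were lower and 26.4% higher in ESCs (54.5% called), 30.1% and 30.8% at T24 (60.9%), and 30.1% and 31% at T48 (61.1%). The median log2 fold change of the list was -0.16, -0.27 and -0.14, against -0.01, 0.00 and 0 for all genes tested. The 20 genes for ribosome biogenesis and the nucleolus were lower in 15, 18 and 12 cases and higher in 2, 0 and 3 (median -0.18, -0.33 and -0.13). Examples at T24 were Nolc1, a nucleolar assembly factor (-0.74 ± 0.03), Gnl3, nucleostemin (-0.58 ± 0.03), and Ncl, nucleolin (-0.34 ± 0.02). The 12 genes of metabolism, polyamines and nucleotides were lower in 6, 9 and 10 cases and higher in 5, 2 and 0 (median -0.05, -0.23 and -0.37). Among them Shmt2, the mitochondrial enzyme that makes one-carbon units from serine, was lower by 0.59, 0.52 and 1.12 on the log2 scale, and Odc1, the first enzyme of polyamine synthesis, was higher in ESCs (0.14) and lower at T24 (-0.23) and T48 (-0.15). The 10 genes of translation, folding and cell cycle were lower in 7, 9 and 3 cases and higher in 2, 1 and 2.

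Ccnd2, the gene of cyclin D2, differed most in this list, from 653 ± 39.1 normalized counts in WT cells at T24 to 50.3 ± 6.06 in iEZR_CA cells (SD, n = 3, log2 fold change -3.68 ± 0.11, adjusted p = 1.3e-40), and by -3.14 at T48. In ESCs it had few reads, 22.1 ± 1.39 against 10.2 ± 2.16 normalized counts (SD, n = 3). Cdk4, whose promoter with 4 E-boxes is shown above, was lower by 0.12, 0.33 and 0.14. Among list genes that were higher, Ddx18, a nucleolar helicase, led in ESCs (0.22, against -0.00 and 0.00 at the later stages, not called). Tert, the reverse transcriptase of telomerase, led at T24 (0.38), but was lower in ESCs (-0.36) and not called at T48 (-0.15). E2f1, the G1/S transcription factor, led at T48 (0.36), but was lower in ESCs (-0.51) and at T24 (-0.22). Nolc1, Gnl3, Ncl, Shmt2, Odc1 and Cdk4 were named here after their values were seen, the other genes by rule. From ESC to T24, 26 list genes rose and 13 fell in WT cells, and 6 rose and 19 fell in iEZR_CA cells (median 0.14 and -0.06), where 65.4% and 56.0% of all genes were called. These changes are relative to the other genes. Spike-in scaling moved the median of all genes to 0.13 in WT and 0.14 in iEZR_CA cells. The list was not counted on that scale, so an absolute fall in iEZR_CA cells is not shown. From T24 to T48, 22 rose and 12 fell in WT, and 29 rose and 10 fell in iEZR_CA cells (median 0.11 and 0.27), against 65.7% and 59.6% of all genes. The interaction was below 0 for 29 and above 0 for 6 at T24 (38.3% of all genes called), and for 18 and 13 at T48 (45.8%). Genes with processed pseudogenes, such as Npm1, are uncertain to the extent that counting by gene split their reads.

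**Figure D4:**
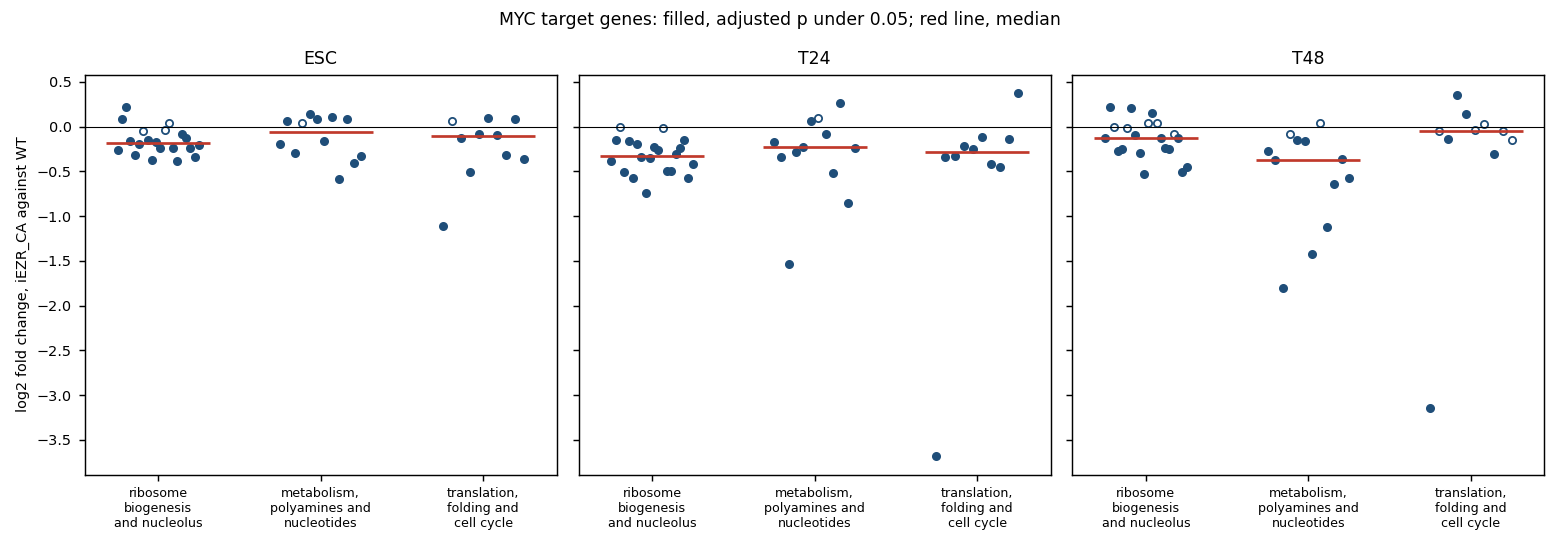
log2 fold change of iEZR_CA against WT (y axis) for the 42 MYC target genes in 3 classes (x axis) in ESCs, at T24 and at T48; each point is a gene, filled where the adjusted p was under 0.05, and red lines are class medians. At T24, 36 genes were lower and 3 higher, and the lowest point at T24 and T48 is Ccnd2.

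The partners of the network were counted from lists of textbook interactors. Of 9 MYC cofactors, 4, 5 and 5 were lower and 2, 3 and 3 higher in iEZR_CA cells at the 3 stages in order. Of all genes, 54.5%, 60.9% and 61.1% were called in either direction. Ruvbl2, an ATPase of the TIP60 and INO80 complexes, was lower at all 3 stages (-0.37, -0.46 and -0.59), as was Actl6a, an actin-like subunit of the same machines (-0.38, -0.46 and -0.07). Zbtb17, the gene of MIZ1, through which MYC represses, was higher at all 3 stages (0.24, 0.22 and 0.31), and Kat2a, the acetyltransferase GCN5, at T24 (0.16) and T48 (0.32). Of 8 corepressor genes of MXD and MNT, 3, 5 and 3 were lower and 3, 2 and 5 higher, against the same shares of all genes. The paralogues that bind MXD and MNT directly moved apart: Sin3a was lower at all 3 stages (-0.55, -0.58 and -0.43), and Sin3b higher (0.36, 0.51 and 0.42, adjusted p = 1.2e-16, 1.3e-23 and 1.7e-18). Hdac2, a deacetylase of the same complex, was higher at all 3 stages (0.36, 0.11 and 0.15). In the parallel arm built on MLX, Mlx differed by -0.32 in ESCs and by -0.22 at T24, and Mlxipl, the glucose sensor ChREBP, was higher at all 3 stages (0.74, 0.31 and 0.33).

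Enzymes that set the life of the MYC protein were counted as a list of 8. In iEZR_CA cells 3, 5 and 0 were lower and 3, 2 and 2 higher in ESCs, at T24 and at T48. At T48 the 2 of 8 called stand against 61.1% of all genes, and in ESCs and at T24 the 6 and 7 of 8 against 54.5% and 60.9%. Gsk3b, the kinase that marks MYC for destruction and the target of CHIRON, was higher in iEZR_CA ESCs (0.62 ± 0.05, adjusted p = 7.4e-11) and at T24 (0.64 ± 0.05, adjusted p = 2.3e-10), with 4952 ± 49.1 against 3200 ± 292 normalized counts in ESCs. At T48 the difference was -0.08 (adjusted p = 0.2). Usp28, a deubiquitinase that protects MYC, was lower in ESCs (-0.32) and at T24, with 4043 ± 32.8 against 7050.5 ± 47.2 normalized counts (-0.80, adjusted p = 3.1e-30), and higher at T48 (0.31, adjusted p = 6.4e-12). Usp7, a further deubiquitinase, differed by -0.33 in ESCs and by -0.35 at T24 (both called), and by -0.01 at T48 (adjusted p = 0.73).

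The complex that MGA scaffolds was followed through 9 partner genes and 12 germline genes that it is known to silence. Of the partners, 5, 6 and 4 were lower and 2, 2 and 3 higher in iEZR_CA cells at the 3 stages, where 54.5%, 60.9% and 61.1% of all genes were called. L3mbtl2, its reader of histones, differed by -0.47 in ESCs and -0.43 at T24, but by 0.44 at T48. Pcgf6, its Polycomb ring partner, was lower at all 3 stages (-0.32, -0.41 and -0.33). Rybp, a ring-binding subunit, was lower in ESCs (-0.17), not called at T24 and higher at T48 (0.50), and Yaf2, its paralogue, was higher in ESCs (0.50) and at T24 (0.46). All 12 germline genes were tested, with 6 higher and 2 lower in ESCs, 3 and 5 at T24, and 4 and 6 at T48 (median 0.30, -0.28 and -0.18), against the same shares of all genes. In WT cells 11 rose and 1 fell from ESC to T48 (median 1.63, 74.5% of all genes called) while Mga rose by 0.57, and in iEZR_CA cells 9 rose and 2 fell (median 0.70, 70.1% of all genes called) while Mga rose by 0.90. The interaction was called below 0 for 9 and above 0 for 0 of the 12 at T24 (38.3% of all genes called), and for 8 and 3 at T48 (45.8%). Mael, a piRNA factor, went from 59.2 ± 2.01 to 1107 ± 55.0 normalized counts in WT cells and from 59.3 ± 6.07 to 281 ± 27 in iEZR_CA cells. Taf7l, a germ cell paralogue of a TFIID subunit, was lower in iEZR_CA cells at all 3 stages (-0.67, -1.38 and -2.01), and Smc1b, a meiotic cohesin, was higher in ESCs (0.59) and at T48 (0.80). Slc25a31, a testis ADP/ATP carrier, was higher in iEZR_CA ESCs (1.20 ± 0.19) and lower at T48 (-0.80 ± 0.12), with -0.33 at T24 (adjusted p = 0.063). Mov10l1, a piRNA helicase, was higher in ESCs (adjusted p = 2.5e-10) and at T24 (0.76 ± 0.11), and was not called at T48 (-0.06).

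Across the 18 libraries, which share line and stage within groups, the members' patterns were compared by Pearson's r of log2(normalized count + 1), as a description. Myc ran closest to Mxd4 (r = 0.93) and Mga (0.91) among the members, above Mycn (0.74), and against Mxi1 (-0.74). Mga and Mxi1 ran most opposed (-0.83). Of 12800 genes with a mean of at least 50 normalized counts, those most like Myc were Slc35d3 (r = 0.993), Fjx1 (0.992), Dnajb5 (0.990), Pold1 (0.989) and Enc1 (0.987). Those most like Mycn were Smarcc1 (0.981), Fam136a (0.977), Nolc1 (0.976), Mrpl16 (0.973) and Rsl1d1 (0.971). Nolc1 also stands in the list of MYC targets.

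Scaling libraries to their ERCC spike-in RNA moved the median log2 fold change of all genes over time to 0.13 in WT and 0.14 in iEZR_CA cells from ESC to T24, and to 0.27 and 0.26 from ESC to T48. The changes of members and list genes over time are given relative to the other genes and would each be higher by about these amounts on the spike-in scale. Of the line differences, 2 members were then called in ESCs, 5 at T24 and 5 at T48, and Myc and Mnt were called lower in iEZR_CA cells at all 3 stages. In 3 cases a called direction over time turned: Mycn from T24 to T48 in WT cells, Max from ESC to T48 in WT cells (0.06) and Mnt from ESC to T48 in iEZR_CA cells (0.08).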

How the data were processed

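Polyadenylated RNA of 18 libraries was sequenced as paired ends. The authors trimmed reads with Trim Galore 0.6.5, aligned them with GSNAP to mm10 (GRCm38), counted reads per gene of Ensembl release 81 with HTSeq and deposited raw counts. Whether counting used the strand is not given in the sources used here. Groups came from the cell line and time labels. The 5 rows outside genes (21.3% to 24.3% of a library) and 92 ERCC spike-in sequences (0.759% to 1.15% of reads on genes and spike-ins) were left out.

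Counts were fitted with edgeR 4.0.16 (R 4.3.3): quasi-likelihood test, robust, TMM scaling (factors 0.975 to 1.03), filterByExpr and 6 group terms, giving 18469 genes, 11 contrasts and 12 residual degrees of freedom. The biological coefficient of variation was 2.98%. Adjusted p-values are Benjamini-Hochberg values over all genes tested, with a threshold of 0.05. Errors of log2 fold changes are standard errors, and intervals are at 95%. Normalized counts used DESeq2 1.42.0 size factors. TPM used the summed exon length of GENCODE M21, which lists 53706 of the identifiers and lacks 95. The script was tested on simulated counts. The methods describe biological replicates, but the labels do not say what separates them, so p-values measure the spread between these samples.

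All 10 members are named. From each other list, the largest called rise and fall between the lines at each stage is named, given a mean of at least 50 normalized counts, and for Myc and Mycn the 5 genes closest in pattern. The members and lists were chosen with earlier results of these data known. Alternatives were DESeq2, its size factors, library totals, spike-in scaling, no filter, at least 10 counts in every library, the compared groups alone, a fold of 1.5, the longest transcript as length, and leaving out each library.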

Additional observations from a re-analysis of the deposited data

Results flagged for a closer look

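For 13 results the change from ESC differed between the lines by a test of the difference itself, the interaction of line and time (edgeR, Benjamini-Hochberg adjusted p over all genes). At T24 the change in iEZR_CA cells minus that in WT cells, on the log2 scale, was -0.53 for Myc (adjusted p = 0.0046), -0.94 for Mycn (6.2e-25), -0.33 for Mnt (7.3e-07), -0.36 for Mga (0.018) and -0.14 for Max (0.027). It was 0.39 for Mycl (0.00019), the one member of the 6 that was above 0.

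At T48 it was 0.45 for Myc (adjusted p = 0.01), 0.17 for Max (0.0043), 0.52 for Mxd1 (0.0046), 0.91 for Mxd4 (8.1e-07) and 0.33 for Mga (0.025), and it was -0.26 for Mycn (3.2e-06) and -0.90 for Mycl (7.3e-14). Myc, Max and Mga thus had values below 0 at T24 and above 0 at T48, and Mycl the reverse. Both sets of values share the ESC libraries.

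Several depended on 1 library. The value for Myc at T24 was not called without the second iEZR_CA ESC library (-0.43, adjusted p = 0.079). At T48 it was not called without the second WT ESC library (0.35, adjusted p = 0.064), the third (0.37, adjusted p = 0.051) or the first iEZR_CA ESC library (0.32, adjusted p = 0.093), where Myc had 52 to 226 reads. The value for Max at T24 was not called when each of 5 libraries was left out in turn (-0.13 to -0.10), and that for Max at T48 lost its call without the third WT T48 library (0.13, adjusted p = 0.05). For Mga at T48 the call was lost when each of 5 libraries was left out in turn (adjusted p = 0.061 to 0.074).

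With spike-in scaling, 10 of the 13 were not called: at T24 Myc, Mycl, Max, Mnt and Mga (adjusted p = 0.1, 0.17, 0.79, 0.33 and 0.21), and at T48 Myc, Mycn, Max, Mxd1 and Mga (0.17, 0.32, 0.61, 0.12 and 0.23). Those of Mycn at T24 (-0.92, adjusted p = 7.2e-06), Mycl at T48 (-0.92, 2.4e-05) and Mxd4 at T48 (0.92, 0.00096) were called. In the order named, the 10 values that lost their call were -0.53, 0.40, -0.12, -0.31 and -0.35 at T24. At T48 they were 0.42, -0.27, 0.17, 0.52 and 0.31. All 10 lay close to the values given above, and why the calls were lost was not tested. Max at T24 was also not called with DESeq2 (adjusted p = 0.051), library totals (0.27) or no filter (0.27).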

How the results depend on the processing

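No paired analysis was made because the labels give no replicate numbers. Of the alternatives that kept all libraries, 762 values kept direction and side of the threshold, 83 lost and 10 gained a call, and 25 changed sign, 22 of them values near 0 that were not called. Requiring a fold above 1.5 left 2, 4 and 4 members called between the lines in ESCs, at T24 and at T48, 1 and 2 interactions at T24 and T48, 3 changes from ESC to T24 in iEZR_CA, 4 from ESC to T48 in WT, and from T24 to T48 2 in iEZR_CA and 5 in WT cells. Spike-in scaling left 2 and 5 between the lines in ESCs and at T24, 1 and 2 interactions, 4 from ESC to T24 in iEZR_CA, 5 from ESC to T48 in WT and 5 from T24 to T48 in WT cells. Over all genes, the line calls were 10058, 11253 and 11282, against 3873, 4794 and 5058 with the fold and 5506, 7129 and 7229 with spike-ins. The interaction calls were 7081 and 8452, against 2769 and 3970 with the fold and 2416 and 3881 with spike-ins. From ESC to T24, calls were 10340 in iEZR_CA and 12082 in WT, against 4436 and 5987 with the fold, and 6593 in iEZR_CA with spike-ins. From T24 to T48 they were 11015 and 12137, against 4570 and 5968 with the fold and 6931 in iEZR_CA with spike-ins. From ESC to T48 they were 12954 and 13767, against 7198 and 8368 with the fold. With spike-ins the share of calls that were higher went from 50.6% to 61.1% between the lines at T24, in WT cells from 48.6% to 61.6% (ESC to T24), 49.9% to 61.8% (T24 to T48) and 49.8% to 66.3% (ESC to T48), in iEZR_CA cells from 48.4% to 68.9% (ESC to T24) and 50.1% to 69.4% (ESC to T48), and for the interaction at T24 from 56.0% to 68.5% (68.2% with library totals). With the longest transcript as length, repressors per MYC TPM were 0.743 and 0.419 in WT ESCs and at T48, and 0.772 and 0.650 in iEZR_CA cells.

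Signs changed as follows, on the log2 scale, and the cause was not tested. With spike-ins, values became 0.0035 for Mxd1 (line, T24), 0.019 for Mxi1 (line, T48), 0.0022 for Mxd3 (interaction, T48) and 0.053 for Mycn (WT, T24 to T48). From ESC to T24 they became 0.13 for Mnt in WT, and 0.096 for Mycn and 0.080 for Max in iEZR_CA. From ESC to T48 they became 0.056 for Max and 0.24 for Mxd3 in WT, and 0.22 for Max, 0.17 for Mxd1, 0.24 for Mxd3 and 0.083 for Mnt in iEZR_CA. With library totals they became 0.029 for Mxd1 (line, T24), 0.0068 for Mxd3 (WT, ESC to T48), and 0.0049 for Max and 0.0022 for Mxd3 (iEZR_CA, ESC to T48). Mnt from ESC to T24 in WT was 0.0090 with DESeq2 size factors and with DESeq2, 0.011 with at least 10 counts in every library and 0.0045 with the groups alone. Mxd3 from ESC to T48 in WT was 0.014 with at least 10 counts. Without a filter, Mxi1 (line, T48) was 0.0060, Mycl (WT, ESC to T48) -0.020 and Mxd3 (interaction, T48) 0.029. Leaving out each library in turn gave -0.020 to 0.0091 for Mnt (WT, ESC to T24), -0.048 to 0.088 and -0.091 to 0.073 for Mxd3 (interaction, T24 and T48), -0.034 to 0.045 for Mycl and -0.090 to 0.043 for Mxd3 (WT, ESC to T48), -0.12 to 0.048 for Mxd3 (iEZR_CA, ESC to T48), -0.18 to 0.049 for Mxd1 (line, T24) and -0.042 to 3.4e-05 for Mxi1 (line, T48). Members called then ranged from 3 to 5, 6 to 8 and 5 to 8 between the lines. In ESCs, reads were few for Myc (52 to 226) and Mxd4 (70 to 137), and the standard error of the line difference was 0.13 for each.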
